A study of Mus musculus with 8 samples.

Results

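The neurotrophins and their receptors were followed as 6 genes in the hippocampus of mice that overexpressed miR-708-5p. They comprised the ligands Bdnf and Ntf3, the receptor kinases Ntrk2 (TrkB) and Ntrk3 (TrkC), and the proneurotrophin receptors Ngfr (p75) and Sort1 (sortilin). The members were chosen by gene name, with earlier results of these data known, and all 6 were found among the 40659 gene identifiers of the count table and among the 17252 genes that passed the filter on low counts. PolyA-RNA was sequenced from whole hippocampi of 8 male C57BL/6JRj mice, 4 in the hpCTL group and 4 in the hp708 group, with 1 library per animal. All mice received a recombinant adeno-associated virus (rAAV) into the dorsal and ventral hippocampus at 7 to 8 weeks of age, and tissue was taken 4 weeks later, whereas the labels give the age as 12 to 13 postnatal weeks. The hp708 virus carried a hairpin for miR-708-5p in the 3' untranslated region (UTR) of EGFP, the hpCTL virus a control hairpin in the same place, and in both the human synapsin promoter directed expression to neurons. The dissected tissue also holds glia, vessels and neurons that the virus did not reach, so that each value is an average over all these cells, in which fewer cells of a type and less RNA per cell cannot be told apart.

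Neurotrophins are secreted growth factors that are made as precursors and cleaved to a mature form. Mature BDNF binds TrkB and neurotrophin-3, the product of Ntf3, binds TrkC, and both receptors signal through the Ras, PI3-kinase and phospholipase C pathways. The uncleaved precursors bind p75 together with sortilin, a receptor that also sorts BDNF inside the cell. In the hippocampus BDNF is known for its role in synaptic plasticity and for transcription that follows neuronal activity. Ntf3 is best known there from dentate granule cells, full-length TrkB from neurons and a truncated TrkB from astrocytes. In the adult brain p75 is known mainly from cholinergic neurons of the basal forebrain, whose cell bodies lie outside the hippocampus.

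The microRNA that was overexpressed is shown first, since a direct effect on a transcript would run through its seed. Its mature form, 23 bases long and given by RefSeq, is written 5' to 3' with the seed (bases 2 to 8) in capitals.
miR-708-5p: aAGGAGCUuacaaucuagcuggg
Its gene, Mir708, lies on the plus strand of GRCm39 at chr7:95898631-95898739. The matches searched for in the sense strand of UTRs were AGCTCCT (7mer-m8), GCTCCTA (7mer-A1) and both together (8mer). None of the 6 members had such a match in its longest annotated 3'UTR, against 26.5% of the 14808 tested genes with a 3'UTR. These UTRs were 2978 bases long for Bdnf, 314 for Ntf3, 5704 for Ntrk2, 16600 for Ntrk3, 1985 for Ngfr and 4273 for Sort1. When every annotated 3'UTR was searched, Ntrk2 was the 1 member with matches, in 18 of its 30 protein-coding transcripts, while 30.8% of the tested genes had one. The 3 matches of Ntrk2 are printed in the DNA of the plus strand with the seed match in capitals, because they fall in transcripts for different forms of the receptor.
Ntrk2 in transcripts of 820 to 821 codons: taggccggttGCTCCTAgtctg
Ntrk2 in transcripts of 475 to 492 codons: gctaagtgacAGCTCCTgtcac
Ntrk2 in transcripts of 492 codons: ctgggagaaaAGCTCCTttgct
The first match lies at chr13:59278524-59278530 in 5 transcripts whose length is that of the full receptor with its kinase domain. The second lies at chr13:59081812-59081818 in 11 transcripts of the truncated receptor, and the last at chr13:59027056-59027062 in 2 more short transcripts. These are matches of letters, and the gene counts add up all transcripts of Ntrk2, so that full-length and truncated forms could not be measured apart. The same holds for the 38 annotated transcripts of Ntrk3.

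The total count per library was 22606824 to 28462428. The library labelled hp708 replicate 1 has conflicting labels. The source tables of the study list its animal in the control group of a qPCR experiment, whereas the sample labels put it in hp708. It was kept in the hp708 group, and the values of the members, and of other named genes whose values depend on it, are also given without it. Markers of the hippocampal fields, interneurons and glia were detected in every library, and no marker of the 15 lists used was at 0 in any library. The choroid plexus markers stood apart, with summed levels of 56.0 to 2071 CPM (counts scaled to 1000000 per library) in hpCTL and 110 to 4396 CPM in hp708. Subiculum and deep cortex markers were also uneven, with a mean log2 CPM of 4.11 to 4.53 in hpCTL, 4.41 in hp708 replicate 1 and 3.56 to 3.85 in the other 3 hp708 libraries (difference -0.53, exact permutation test, two-sided, p = 0.0857).

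No member passed a false discovery rate (FDR) of 0.05 between hp708 and hpCTL in edgeR's quasi-likelihood test, nor in any of the 16 alternative fits. Over all 17252 tested genes the same test called 1 gene (0.0058%). At an unadjusted p below 0.05, 2 of the 6 members, Ntrk3 and Sort1, were higher in hp708 and none was lower, where 2.82% of all tested genes were higher and 4.87% lower. In the 16 alternative fits, 0 to 3 members were higher at that p (Bdnf, Ntrk3 or Sort1), and 0 to 1 were lower (Ntf3, without hp708 replicate 2 or 3). The fitted log2 fold changes, hp708 over hpCTL, ranged from -0.02 for Ntf3 to 0.31 for Bdnf with a median of 0.10, beside a median of -0.01 over all tested genes. The median of the 6 was 0.00 without hp708 replicate 1 and 0.18 without hpCTL replicate 2. Over all tested genes 46.8% had a fold change above 0 and 53.2% below. The CPM of the groups overlapped for each of the 6 members, while they did not overlap for 1.51% of all tested genes.

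**Figure D1:**
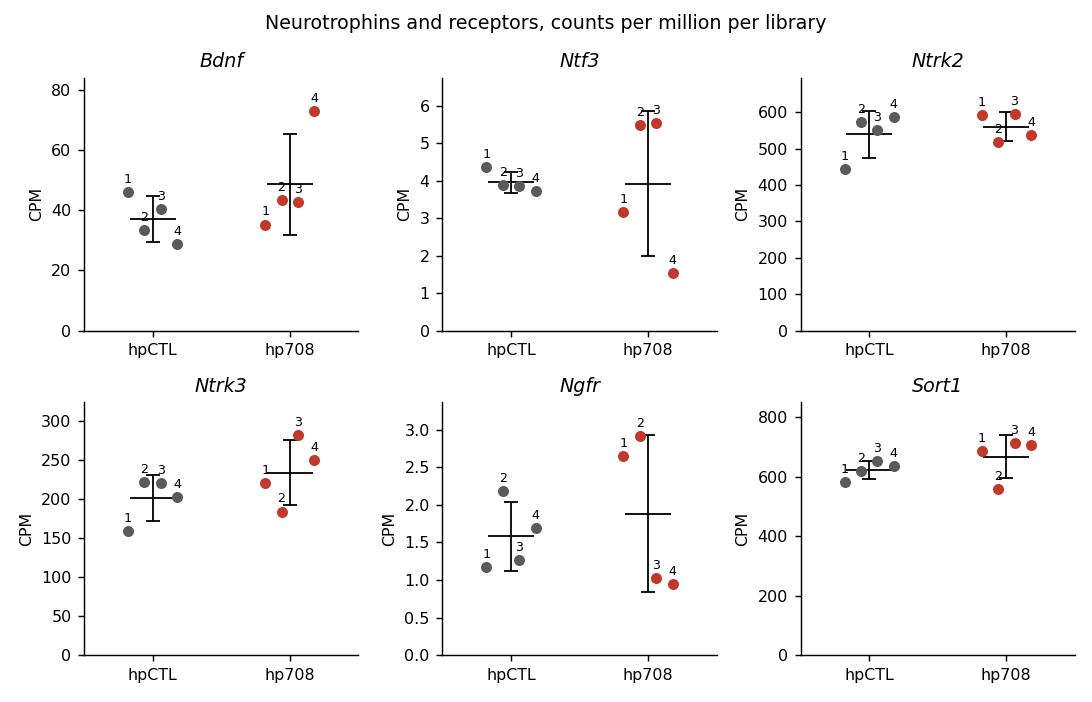
CPM (vertical axis, starting at 0) of the 6 genes in each library, numbered by replicate, grey for hpCTL and red for hp708. The horizontal bar is the mean and the error bar the SD of 4 libraries, and in every panel the groups overlap, with hp708 replicate 4 at 73.0 CPM for Bdnf and 1.53 CPM for Ntf3.

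Bdnf, the ligand of TrkB (ENSMUSG00000048482, chr2:109505045-109557475 on the plus strand of GRCm39), had 45.9, 33.3, 40.4 and 28.8 CPM in hpCTL replicates 1 to 4 and 35.2, 43.3, 42.8 and 73.0 CPM in hp708 replicates 1 to 4. Replicate 4 of hp708 lay above every other library, and the other 3 hp708 libraries lay within the range of hpCTL. The means were 37.1 ± 7.57 CPM in hpCTL and 48.6 ± 16.7 CPM in hp708 (SD, n = 4 each). The log2 fold change was 0.31 with a standard error (SE) of 0.15 and an FDR of 0.709, and an exact permutation test of the log2 CPM gave p = 0.257 (two-sided, with 0.0286 as the smallest p for 4 against 4). Bdnf was higher in hp708 in each of the 16 alternative fits, by an amount that depended on the libraries. The log2 fold change was 0.15 (FDR 0.691) without hp708 replicate 4 and 0.66 (SE 0.13, FDR 0.0963) without hp708 replicate 1, the animal with conflicting labels. Without that animal and without surrogate variables it was 0.52 (SE 0.22, FDR 0.999).

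Ntf3, which encodes neurotrophin-3, the ligand of TrkC (ENSMUSG00000049107, chr6:126078375-126143873 on the minus strand), lay within a narrow range in hpCTL, at 4.36, 3.89, 3.86 and 3.72 CPM. In hp708 it was 3.15, 5.48, 5.54 and 1.53 CPM. Replicates 2 and 3 of hp708 were above all hpCTL libraries, and replicates 1 and 4 were below them all. The means were nearly equal, 3.96 ± 0.277 and 3.93 ± 1.95 CPM (SD, n = 4 each), and the log2 fold change was -0.02 (SE 0.37, FDR 0.990). The counts behind these values were 89 to 122 in hpCTL and 37 to 130 in hp708. The direction turned to 0.12 without hp708 replicate 4 and reached -0.65 without hp708 replicate 3, and it was -0.28 (SE 0.29, FDR 0.768) without hp708 replicate 1.

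The 2 ligands departed most, and in opposite directions, in hp708 replicate 4. There Bdnf departed from its hpCTL mean by 1.00 and Ntf3 by -1.32 on the log2 scale. The ratio of Bdnf to Ntf3 counts, which does not depend on the scaling of a library, was 10.5, 8.55, 10.5 and 7.74 in hpCTL. It was 11.2, 7.90, 7.72 and 47.8 in hp708, so that 3 hp708 libraries resembled hpCTL and 1 stood far above. The mean log2 ratio was 3.18 ± 0.22 in hpCTL and 3.71 ± 1.22 in hp708 (SD, n = 4), a difference of 0.53 that did not pass an exact permutation test (two-sided, p = 0.657, Benjamini-Hochberg adjusted 0.943 over the 3 ratios compared). Without hp708 replicate 4 the difference was -0.07.

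**Figure D2:**
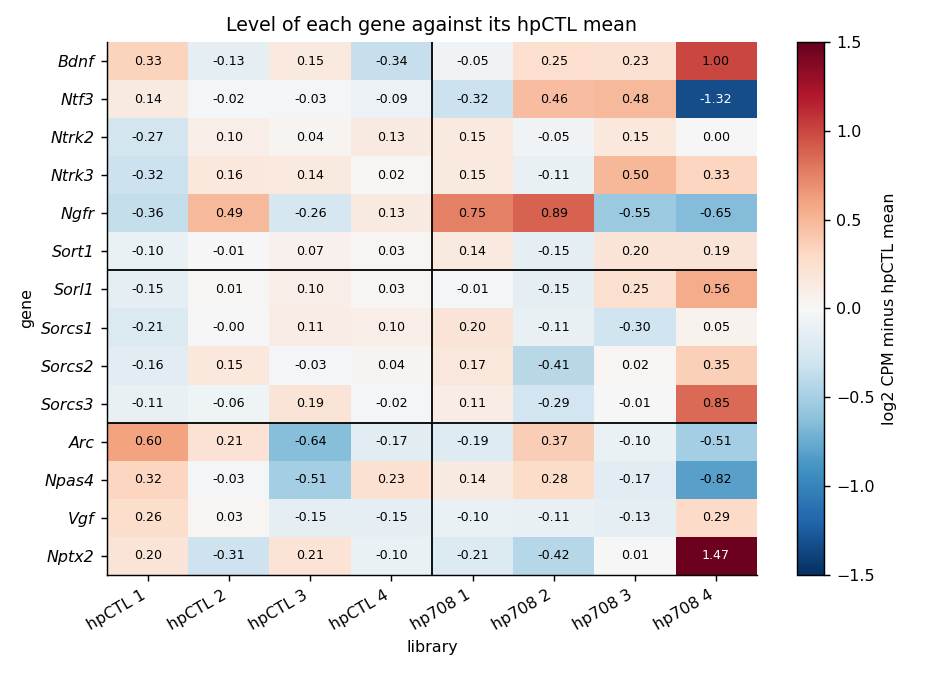
Log2 CPM of each gene minus its hpCTL mean, by library (columns) and gene (rows: the 6 members, then the sortilin relatives, then 4 activity-regulated genes), with red for higher and blue for lower. In hp708 replicate 4, Bdnf (1.00), Sorcs3 (0.85) and Nptx2 (1.47) are high and Ntf3 (-1.32) and Npas4 (-0.82) low.

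Ntrk2, the receptor kinase for BDNF (ENSMUSG00000055254, chr13:58954176-59281784 on the plus strand), had 444, 573, 552 and 588 CPM in hpCTL and 594, 518, 596 and 536 CPM in hp708. The hp708 values lay within or just above the range of hpCTL, whose replicate 1 was the lowest of all. The log2 fold change was 0.07 (SE 0.05, FDR 0.824), with means of 539 ± 65.4 and 561 ± 39.9 CPM (SD, n = 4). It turned to -0.05 (SE 0.06, FDR 0.793) without hp708 replicate 1 and to -0.01 without hpCTL replicate 1.

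Ntrk3, the receptor kinase for neurotrophin-3 (ENSMUSG00000059146, chr7:77825707-78387760 on the minus strand), had 159, 223, 220 and 203 CPM in hpCTL and 221, 184, 282 and 250 CPM in hp708. Replicates 3 and 4 of hp708 exceeded every hpCTL library, and hpCTL replicate 1 was the lowest. The means were 201 ± 29.4 and 234 ± 41.7 CPM (SD, n = 4). The log2 fold change of 0.21 (SE 0.06) had the lowest FDR of the members, 0.549, at an unadjusted p of 0.0144 in the edgeR fit, while the exact permutation test gave p = 0.257. Ntrk3 was higher in hp708 in each of the 16 alternatives, at 0.11 without hpCTL replicate 1, 0.12 (SE 0.06, FDR 0.476) without hp708 replicate 1 and 0.29 without hpCTL replicate 2. Among the marker lists, dentate granule cell markers were also highest in hp708 replicate 3, with a mean log2 CPM of 6.17 beside 5.35 to 5.76 in the other 7 libraries. The orders differed elsewhere, since markers of dentate granule cells were lowest in hp708 replicate 1. In hpCTL replicate 1, the lowest library for Ntrk3, the markers of these cells were at 5.69. The part of these cells in the level of Ntrk3 was not tested.

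The counts of TrkB to TrkC stood at ratios of 2.78, 2.57, 2.50 and 2.90 in hpCTL and 2.69, 2.81, 2.11 and 2.14 in hp708. Replicates 3 and 4 of hp708 had the lowest ratios of the 8 libraries, and the other 2 lay within the hpCTL range. The difference of the mean log2 ratio was -0.15 (exact permutation test, two-sided, p = 0.314, adjusted 0.943). It was negative in all 8 fits that left out 1 library, from -0.22 to -0.09.

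Ngfr, which encodes p75 (ENSMUSG00000000120, chr11:95459638-95478561 on the minus strand), was the least abundant member at 1.18, 2.19, 1.27 and 1.69 CPM in hpCTL and 2.65, 2.91, 1.02 and 0.95 CPM in hp708. The hp708 group held both the 2 highest and the 2 lowest of the 8 values. These rest on 31 to 50 counts per library in hpCTL and 23 to 73 in hp708. The log2 fold change was 0.09 (SE 0.25, FDR 0.954), and it became -0.25 (SE 0.24, FDR 0.750) without hp708 replicate 1. Among the marker genes, the 2 most alike to Ngfr over the 8 libraries were choroid plexus genes, Folr1 (Pearson r = 0.94) and Kl (0.92). The 6 choroid plexus markers, all detected, had a mean log2 CPM of 1.89, 5.65, 3.24 and 5.99 in hpCTL replicates 1 to 4 and of 6.40, 6.58, 2.88 and 3.19 in hp708 replicates 1 to 4. The 4 libraries with the most choroid plexus markers were thus the 4 with the most Ngfr, in both groups. These correlations share the libraries and their scaling, and the part of the choroid plexus in the level of Ngfr was not tested.

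**Figure D3:**
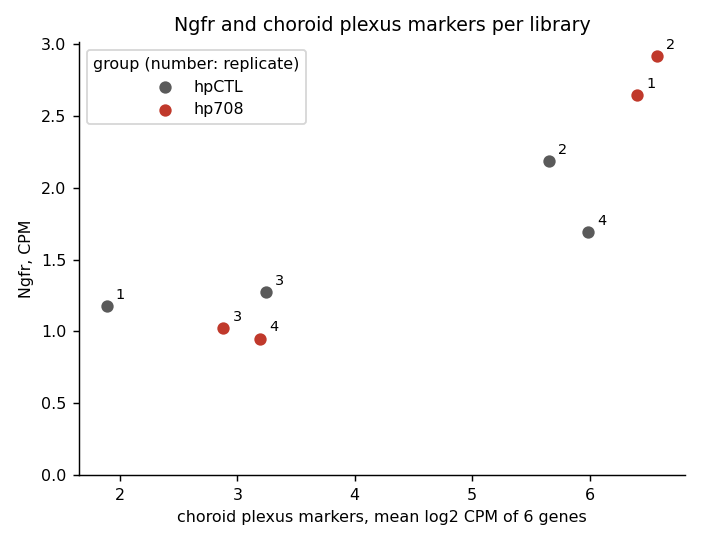
Ngfr in CPM (vertical axis, from 0) against the mean log2 CPM of 6 choroid plexus markers (horizontal axis), with 1 point per library, grey for hpCTL, red for hp708, numbered by replicate. Libraries with marker levels of 5.65 to 6.58 have 1.69 to 2.91 CPM of Ngfr, and those at 1.89 to 3.24 have 0.95 to 1.27 CPM.

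Sort1, which encodes sortilin (ENSMUSG00000068747, chr3:108191285-108268842 on the plus strand), had 582, 619, 653 and 638 CPM in hpCTL and 686, 560, 714 and 709 CPM in hp708. In hp708, replicates 1, 3 and 4 exceeded every hpCTL library and replicate 2 was the lowest of all 8. The means were 623 ± 30.6 and 667 ± 72.3 CPM (SD, n = 4). The log2 fold change was 0.11 (SE 0.04, FDR 0.594, unadjusted p = 0.0270 in the edgeR fit), and an exact permutation test gave p = 0.343. Sort1 was higher in hp708 in all 16 alternatives, by 0.05 (SE 0.05, FDR 0.746) without hp708 replicate 1 and up to 0.16 without hp708 replicate 2.

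For Ngfr to Sort1 the count ratios stood at 0.00202, 0.00353, 0.00195 and 0.00265 in hpCTL and at 0.00385, 0.00520, 0.00143 and 0.00134 in hp708. As for Ngfr alone, hp708 held both the 2 highest and the 2 lowest ratios. The difference of the mean log2 ratio was 0.02 (exact permutation test, two-sided, p = 0.943, adjusted 0.943), and leaving out 1 library at a time gave -0.32 to 0.30.

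**Figure D4:**
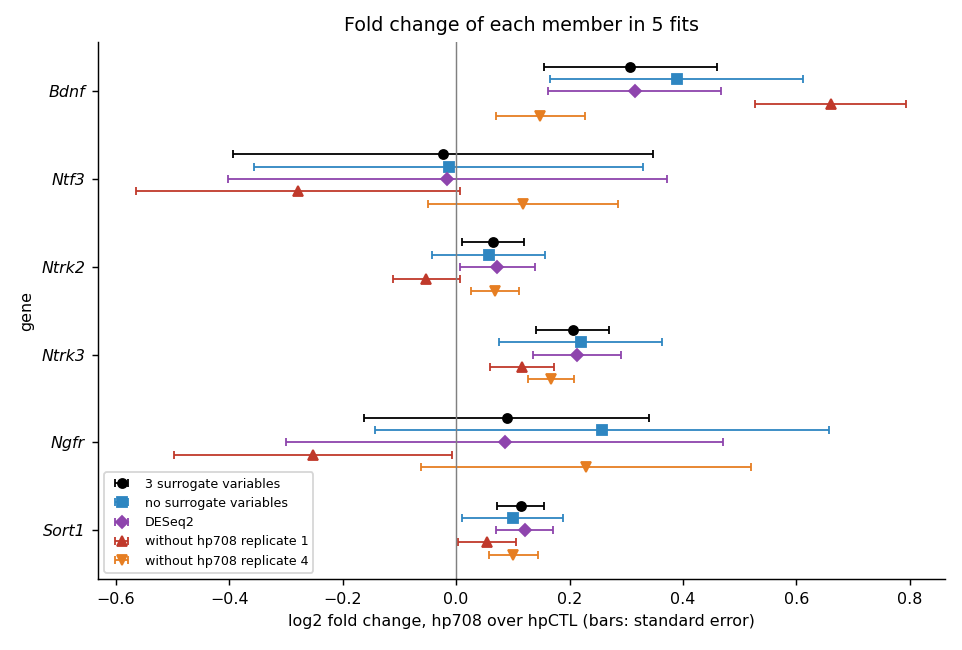
Log2 fold change, hp708 over hpCTL (horizontal axis), of the 6 genes (rows) in 5 fits, with bars for the standard error. Bdnf, Ntrk3 and Sort1 lie to the right of 0 in all 5, and Bdnf moves from 0.15 without hp708 replicate 4 to 0.66 without hp708 replicate 1.

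The members differed widely in level. Per kilobase of merged exons and per 1000000 counts (RPKM), averaged over the 8 libraries, sortilin stood first at 78.6 ± 6.90 RPKM, followed by Ntrk2 at 18.4 ± 1.72 RPKM, Ntrk3 at 6.95 ± 1.21 RPKM, Bdnf at 5.64 ± 1.78 RPKM, Ntf3 at 2.27 ± 0.741 RPKM and Ngfr at 0.502 ± 0.221 RPKM (SD, n = 8). The library ranges of Ntrk3 (5.08 to 9.00) and Bdnf (3.79 to 9.62) overlapped, so that these neighbours did not differ beyond their spread. The other neighbours in this order did not overlap, although Ntf3, at 0.880 RPKM in its lowest library, came close to the highest Ngfr library at 0.844 RPKM. The order was the same per kilobase of the longest annotated transcript. The distance did depend on the length used, since the merged exons of Ntrk2 span 29922 bases and its longest transcript 9050. On the latter scale Ntrk2 had 60.8 ± 5.69 RPKM and Sort1 91.9 ± 8.06 RPKM.

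Beside genes of like level, the spread between animals was wide for the ligands and near the middle for Ntrk2 and Sort1. For Ntf3 the coefficient of variation of the CPM was 7.01% within hpCTL and 49.6% within hp708. The hpCTL value rests on 89 to 122 counts per library, at which counting noise alone gives a spread no smaller than this. The biological coefficient of variation that edgeR estimated for Bdnf was 0.225, above that of 97.0% of the 5424 tested genes within 2-fold of its CPM. For Ntrk3 it was 0.151, above 92.2% of the genes of like level, for Ntf3 0.353 (87.2%) and for Ngfr 0.394 (85.0%). For Ntrk2 (0.114, 58.8%) and Sort1 (0.106, 44.9%) it was near the middle. The highest library exceeded the lowest 3.63-fold for Ntf3, 3.07-fold for Ngfr and 2.54-fold for Bdnf, but 1.34-fold for Ntrk2 and 1.27-fold for Sort1.

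Exons of 4 members overlap those of long noncoding genes on the other strand, and the strand setting of the counting is not given in the sources used here. For Sort1 these are Gm12522 (21.4% of its exon bases, 28 to 67 counts per library) and Gm12523 (5.49%, 0 to 1 counts), for Bdnf Gm45346 (13.5%, 1 to 6 counts), for Ntrk3 Gm9885 (1.24%, 83 to 155 counts), and for Ntf3 Gm67883 (12.3%, not matched in the table). The counts assigned to these partners were small beside the 761 to 1767 of Bdnf, the 4242 to 6617 of Ntrk3 and the 12892 to 18938 of Sort1. They cannot show whether reads over the shared bases were left out of both counts.

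The genes whose pattern over the 8 libraries was most like that of each member were listed as a description, with Pearson's r of log2 CPM over libraries that share their depth and composition. They were picked as the 3 with the highest r among all tested genes and among marker genes. Over 8 libraries a high r thus follows in part from the search itself. For Bdnf these were Lemd3 (r = 0.98), AI429214 (0.97) and Spock3 (0.97), and among marker genes the interneuron peptide Npy (0.93), Bok (0.86) and Rgs14 (0.83). The 7 interneuron markers together had a mean log2 CPM of 6.22, 5.97, 5.91 and 5.95 in hpCTL replicates 1 to 4. In hp708 replicates 1 to 4 it was 5.97, 5.93, 5.84 and 6.01. They were thus highest in hpCTL replicate 1, whereas Bdnf was highest in hp708 replicate 4. The part of interneurons in the level of Bdnf was not tested. For Ntf3 they were Uhrf2, Cep44 and Slc39a2 (0.97 to 0.98), and among marker genes Calb1 (0.84), Calb2 (0.83) and Gja1 (0.82). By rank (Spearman's rho) these markers were less like Ntf3, at 0.62 for Calb1, 0.29 for Calb2 and 0.50 for Gja1. Ntrk2 was most like Gpatch8, Klf12 and Rfx5 (each 0.99), then among markers Cemip (0.92), Flt1 (0.88) and the astrocyte glutamate transporter Slc1a3 (0.83). Spearman's rho with Ntrk2 was 0.62 for Flt1 and 0.52 for Slc1a3. For Ntrk3 the closest were Dstyk, Shisa7 and Mrtfb (each 0.99), with Adcy1 (0.92), Slc1a2 (0.87) and Prox1 (0.83) among the markers. Spearman's rho with Ntrk3 was 0.62 for Prox1. Ngfr was closest to Plcd3, Pdk4 and Efs (0.97 to 0.98), and after Folr1 and Kl to the marker Igf2 (0.90). Sort1 was closest to Gm31356, Med14 and Camsap2 (each 0.98), and among the markers to Slc1a2 (0.95), a second astrocyte glutamate transporter, Fgfr3 (0.89) and Pex5l (0.83). The 8 astrocyte markers together had a mean log2 CPM of 8.29, 8.34, 8.41 and 8.41 in hpCTL replicates 1 to 4. In hp708 replicates 1 to 4 it was 8.42, 8.38, 8.33 and 8.58. These markers were highest in hp708 replicate 4, where Ntrk2 had 536 CPM. They were at 8.33 in hp708 replicate 3, where Ntrk2 was highest at 596 CPM. Both the markers and Ntrk2 were lowest in hpCTL replicate 1. The part of astrocytes in the levels of Sort1, Ntrk2 and Ntrk3 was not tested. Spearman's rho was 0.76 or more wherever it is not printed above.

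Of the 5 further family genes examined, 4 relatives of sortilin passed the filter on low counts, and none of them passed the FDR or an unadjusted p of 0.05 (median log2 fold change 0.10, 3 higher and 1 lower). The median of these 4 was -0.01 without hp708 replicate 4 and 0.21 without hp708 replicate 2. Ntf5, a further ligand of TrkB, had 1 to 15 counts in each library and did not pass the filter. Sorl1, a sorting receptor of the same family as sortilin, had 315 to 375 CPM in hpCTL and 346, 315, 414 and 515 CPM in hp708 (log2 fold change 0.13, SE 0.07, FDR 0.741). Sorcs3 reached 81.6 CPM in hp708 replicate 4 and lay between 36.9 and 51.6 CPM in the other 7 libraries (log2 fold change 0.16, SE 0.18, FDR 0.873). Sorcs2 (log2 fold change 0.07, FDR 0.915) and Sorcs1 (log2 fold change -0.04, FDR 0.957) gave values near 0, and without hp708 replicate 1 they were -0.04 for Sorcs2 and -0.12 for Sorcs1, with 0.26 for Sorcs3 and 0.21 for Sorl1.

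None of the genes on the 6 pathway lists passed an FDR of 0.05, in the fit described or in any alternative. Counts of list genes at an unadjusted p below 0.05 in the quasi-likelihood test are also given. At that p, 2.82% of all tested genes were higher in hp708 and 4.87% lower. Of the 12 tested genes that cleave proneurotrophins or regulate that cleavage, 7 were above and 5 below 0 (median 0.00, from -0.03 without hpCTL replicate 2 to 0.08 without hpCTL replicate 1), and 1 had an unadjusted p below 0.05. That gene was Serpini1, neuroserpin, an inhibitor of tissue plasminogen activator. It had 176 to 197 CPM in hpCTL and 193, 142, 158 and 138 CPM in hp708, with a log2 fold change of -0.18 (SE 0.06, FDR 0.549). Replicates 2 to 4 of hp708 lay below all hpCTL libraries and replicate 1 within their range, and without that animal the log2 fold change was -0.38 at an FDR of 0.0519. The proprotein convertase Furin had 60.3 CPM in hp708 replicate 4 against 34.8 to 50.3 CPM in the other libraries (log2 fold change 0.10, FDR 0.771). The convertase Pcsk1 (log2 fold change -0.14, FDR 0.886), the protease Mmp9 (log2 fold change -0.29, FDR 0.770) and Plat, tissue plasminogen activator itself (log2 fold change 0.00, FDR 0.997), were not separated from 0 either. With hp708 replicate 1 left out, the fitted log2 fold change was -0.41 (FDR 0.133) for Pcsk1, -0.01 for Mmp9 and 0.09 for Plat.

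**Figure D5:**
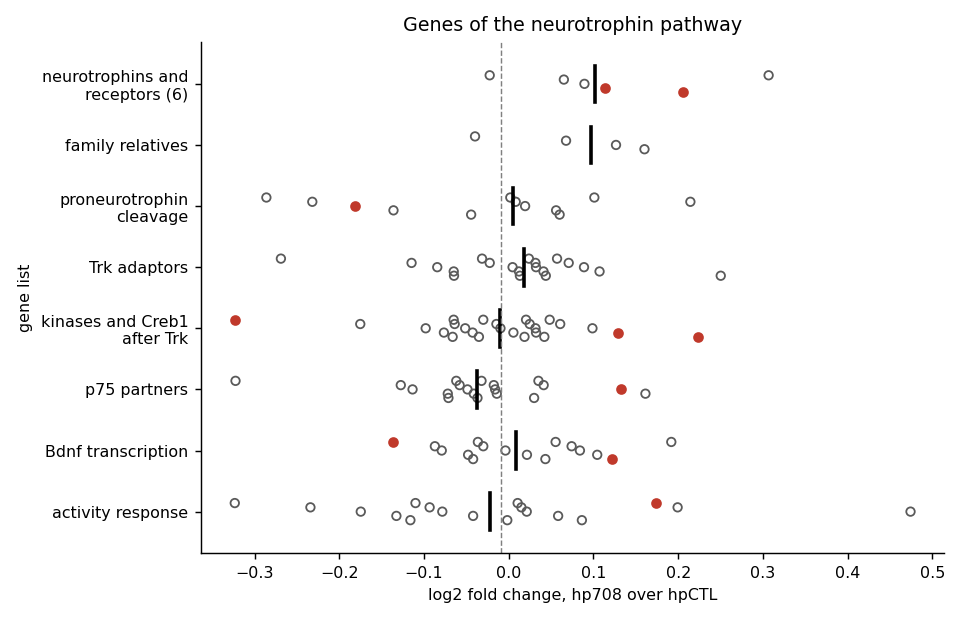
Log2 fold change, hp708 over hpCTL (horizontal axis), of every tested gene on the lists (rows), with filled red points for an unadjusted p below 0.05, a black bar for the list median and a dashed line for the median of all tested genes (-0.01). The list medians lie between -0.04 and 0.10.

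Among the 20 adaptors that Trk receptors use, 13 were above and 7 below 0 (median 0.02, but -0.03 without hp708 replicate 1), and none had an unadjusted p below 0.05. The docking protein Frs2 (log2 fold change 0.07, SE 0.05, FDR 0.777), the phospholipase Plcg1 (log2 fold change 0.03, FDR 0.914) and the Trk-binding scaffold Kidins220 (log2 fold change 0.04, FDR 0.865) gave values near 0. Shc3, a neuronal adaptor, ranged from 4.00 to 15.9 CPM in hpCTL and from 6.09 to 17.6 CPM in hp708 (log2 fold change 0.25, SE 0.21, FDR 0.822). Without hp708 replicate 1 it was -0.30 for Shc3, -0.03 for Kidins220, 0.01 for Plcg1 and 0.04 for Frs2. The list of kinases and effectors that follow held 25 genes. It included Pdk1, pyruvate dehydrogenase kinase 1, which is not one of these effectors (log2 fold change -0.18, FDR 0.744). Of the 25 genes, 12 were above and 13 below 0, with Pdk1 among the latter. The median was -0.01 (from -0.02 without hpCTL replicate 3 to 0.01 without hpCTL replicate 1), and 3 genes had an unadjusted p below 0.05. These 3 genes are named because their values had been seen: Camk2a, the calcium-dependent kinase of synapses (log2 fold change 0.22, SE 0.06, FDR 0.478), Pdpk1, a kinase that acts after PI3-kinase (log2 fold change 0.13, FDR 0.594), and Rps6ka1, a ribosomal S6 kinase (log2 fold change -0.32, SE 0.09, FDR 0.511). Rps6ka1 rested on hp708 replicate 1 for its direction, with a log2 fold change of 0.03 without it. The transcription factor Creb1 had a log2 fold change of -0.03 (FDR 0.923), and 0.01 without hp708 replicate 1.

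Of the 19 partners and effectors of p75, 5 were above and 14 below 0 (median -0.04), and 1, Irak1, had an unadjusted p below 0.05 (log2 fold change 0.13, FDR 0.613, singled out after its values were seen). Lingo1, a coreceptor of p75 in the Nogo receptor complex, had 317 CPM in hp708 replicate 4 and 177 to 220 CPM in the other libraries (log2 fold change 0.16, SE 0.14, FDR 0.827). The p75-binding proteins Maged1 (log2 fold change -0.06, FDR 0.804) and Bex3 (log2 fold change -0.01, FDR 0.964) lay near 0. The median of this list was 0.00 without hp708 replicate 1 and -0.06 without hpCTL replicate 2. With hp708 replicate 1 left out, the fitted log2 fold change was 0.07 (FDR 0.668) for Irak1, 0.24 for Lingo1, -0.12 for Maged1 and -0.01 for Bex3.

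Among 16 regulators of Bdnf transcription, 8 were above and 8 below 0 (median 0.01, but -0.03 without hpCTL replicate 1 and -0.03 without hpCTL replicate 4). The CREB coactivator Crtc1 (log2 fold change 0.12, FDR 0.613) and the repressor Bhlhe40 (log2 fold change -0.14, FDR 0.630) had an unadjusted p below 0.05 and were named after their values were seen. Without hp708 replicate 1 the log2 fold change of Crtc1 was 0.02 (FDR 0.926) and that of Bhlhe40 -0.09 (FDR 0.598). Of the 18 genes that respond to neuronal activity, 8 were above and 10 below 0 (median -0.02, from -0.13 without hp708 replicate 2 to 0.04 without hp708 replicate 1), and Egr3, named after its values were seen, had an unadjusted p below 0.05 (log2 fold change 0.17, SE 0.06, FDR 0.593). Without hp708 replicate 1 Egr3 had a log2 fold change of 0.31 (FDR 0.0752).

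The activity-regulated genes did not all stand on one side of the other libraries in hp708 replicate 4, the library with the most Bdnf and the least Ntf3. Nptx2, a secreted pentraxin at excitatory synapses, was at 59.8 CPM there and at 16.0 to 24.9 CPM in the other 7 libraries (log2 fold change 0.20, SE 0.32, FDR 0.920). Vgf, a secreted neuropeptide precursor, was at 198 CPM there, level with hpCTL replicate 1 at 195 CPM and above the 146 to 166 CPM of the remaining 6. The immediate early transcription factor Npas4 was at its lowest there, 8.67 CPM beside 10.7 to 19.2 CPM (log2 fold change -0.04, FDR 0.961). Arc, a synaptic immediate early gene, had 128 CPM there and 116 to 276 CPM in the others (log2 fold change -0.08, SE 0.17, FDR 0.940). With hp708 replicate 1 left out, the fitted log2 fold change was 0.61 (FDR 0.133) for Nptx2, 0.11 for Vgf, -0.22 for Npas4 and -0.02 for Arc. The mean log2 CPM of CA3 pyramidal neuron markers was 5.56 in that library and 5.06 to 5.52 in the others, and that of CA2 markers was 5.47 beside 4.99 to 5.61. The part of these cells in the level of Bdnf was not tested.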

How the data were processed

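PolyA-RNA sequencing data of 8 hippocampi, grouped by their sample labels, were analysed. The authors aligned the reads to GRCm39 with STAR 2.7.8a and counted them per gene with featureCounts 1.6.4, and they deposited raw counts without normalization, with strand and multi-mapping settings not given in the sources used here. Of 40659 gene identifiers, 39641 were named from a later GENCODE release of the same build.

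Genes were filtered with filterByExpr, normalized by TMM and entered into edgeR 4.0.16 (R 4.3.3). The quasi-likelihood test was used with 3 surrogate variables from sva 3.50.0 and Benjamini-Hochberg adjustment over all genes tested. The filter and the number of surrogate variables follow the methods of the study. The quasi-likelihood test follows its figure legend, while its methods name a likelihood ratio test. The SE was derived from the log2 fold change and the F statistic. CPM used TMM-scaled totals, and log2 CPM a prior count of 2. Differences of single genes and ratios were compared between groups by an exact permutation test (two-sided). Log2 ratios were taken from log2 CPM unless stated, while the ratios printed per library are those of the counts. As alternatives, fits were run without or with other surrogate variables, by the likelihood ratio test, with DESeq2 1.42.0 or its size factors, without the filter, with a replicate block and with each library left out. Code was tested on simulated data. Library pairs of 1 group differed beyond counting noise (chi-square per degree of freedom 10.0 or more over genes with at least 20 counts), so none was counted as a copy. Each library comes from 1 animal. The permutation p-values rest on the spread between animals, and those of edgeR on what the surrogate variables leave of it. Without surrogate variables the unadjusted p of the quasi-likelihood test was 0.158 for Ntrk3 and 0.294 for Sort1.

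The members, pathway lists and marker lists were chosen with earlier results of these data known. Genes named are the 6 members, the 5 family genes, and Furin, Pcsk1, Plat, Serpini1, Mmp9, Shc3, Frs2, Plcg1, Kidins220, Creb1, Maged1, Bex3, Lingo1, Npas4, Arc, Vgf and Nptx2, plus the 3 tested genes and 3 marker genes most like each member. Camk2a, Pdpk1, Rps6ka1, Irak1, Crtc1, Bhlhe40 and Egr3 are named in addition, because they had an unadjusted p below 0.05, after their values were seen. Pdk1 is named because it was on the list of kinases but is no effector of Trk receptors. 3'UTRs were those of protein-coding transcripts. Some further genes of these lists are not reported here. The replicate numbers did not pair the groups.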

Additional observations from a re-analysis of the deposited data

Results flagged for a closer look

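Among 92 groups of 4 libraries examined for the named genes, marker lists and ratios, 3 held a library far from the other 3 of its group, where chance alone flags about 4.60. None of the 3 was a member, and all 3 were in hp708 replicate 4, the library with the most Bdnf. There Nptx2 was at 59.8 CPM against 16.0 to 21.6 CPM in the other hp708 libraries, Vgf at 198 CPM against 148 to 152 CPM, and Furin at 60.3 CPM against 45.3 to 47.4 CPM.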

How the results depend on the processing

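The fitted log2 fold changes of Bdnf, Ntrk3 and Sort1 kept their direction in all 16 alternatives, and no member passed an FDR of 0.05 in any. The count of all genes called at that FDR, 1, was 0 without surrogate variables, 0 with surrogate variables from TMM-scaled counts (added after seeing the data), 0 without both hp708 replicate 1 and surrogate variables, 12 without the filter on low counts, 127 by the likelihood ratio test and 96 by DESeq2, and 0 to 56 with 1 library left out, highest without hp708 replicate 1. The first 3 of these fits, with 0 calls, had 312, 2288 and 596 genes at an unadjusted p below 0.05, and the fit without hpCTL replicate 3, also with 0 calls, had 520. Same-numbered libraries did not deviate together (correlations -0.04 to 0.02), and the replicate block called 1 gene and no member.

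With 1 library left out the log2 fold change of Ntf3 was -0.65 to 0.12, Ntrk2 -0.05 to 0.12, Ngfr -0.25 to 0.29, Sorcs1 -0.12 to 0.07, Sorcs2 -0.04 to 0.18, Sorcs3 -0.02 to 0.38, Plat -0.07 to 0.10, Shc3 -0.30 to 0.62, Kidins220 -0.03 to 0.07, Creb1 -0.07 to 0.01, Bex3 -0.06 to 0.04, Npas4 -0.22 to 0.11, Vgf -0.07 to 0.12, Nptx2 -0.13 to 0.61 and Rps6ka1 -0.46 to 0.03. The log2 ratio difference was -0.07 to 0.79 for Bdnf to Ntf3 and -0.32 to 0.30 for Ngfr to Sort1. Signs also turned without both hp708 replicate 1 and surrogate variables (Ntf3 0.08, Mmp9 0.0026, Creb1 0.03, Vgf 0.02, Rps6ka1 0.02), without the filter (Ngfr -0.01, Vgf 0.0018), with surrogate variables from TMM-scaled counts (Ngfr -0.04, Vgf 0.01) and with DESeq2 or its size factors (Vgf 0.0050 in both). Counting any annotated 3'UTR, 1 member in place of 0 held a seed match. The cause of these shifts was not tested. Counts of 23 to 130 for Ngfr and Ntf3 limit what could be seen of them.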
